A study of Mus musculus with 8 samples.

Results

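Some 80 genes that the deposited counts list under a Gm or Rik symbol were high in enteric neural crest-derived cells (ENCDCs), the precursors of the enteric nervous system. They are described here with their genomic neighbours. The figures call these genes unnamed, although RefSeq holds 9 of them under another symbol. A Gm symbol marks a predicted mouse gene and a Rik symbol marks a gene first known from a RIKEN cDNA clone, and neither says what the gene does. The genes were chosen from 10036 Gm and Rik symbols among 29092 genes with a count. A gene was kept when its mean ENCDC count was at least 20 and at least 4 times the mean gut count plus 0.75, and when its lowest ENCDC count lay above its highest gut count. The ENCDC and gut counts of these genes therefore chose them, and they are given below as a description with no test.

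The ENCDCs were the GFP+ cells that were sorted at E13.5 from whole bowels, taken between the stomach and the anus, of embryos with 1 Ednrb-EGFP reporter allele. The reporter line had been bred to C57BL/6J wild-type mice, and the labels give the genotype of the cells as wild-type. The gut cells were the GFP- cells of the same bowels, so that every library came from reporter embryos and the gut group mixed all cell types other than the ENCDCs. There were 4 mRNA-seq libraries of each population, made from RNA that was pooled where needed, so that p-values measure the spread between these libraries, which may be technical. In bulk samples, fewer cells of a type and less RNA per cell cannot be told apart.

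The libraries held 13250893 to 13267220 counts each. All 20 ENCDC marker genes examined were called higher in ENCDCs, with summed counts of 79046 to 94521 in ENCDC libraries and 4321 to 4573 in gut libraries. ENCDC replicate 3 stood apart from the other ENCDC libraries on the second principal component (12.99% of the variance). The summed count of 10 smooth muscle markers was 10283 in that library and at most 3547 in the other ENCDC libraries, against 52777 to 65319 in gut libraries. The summed count of 12 mesenchyme markers was 25150 in that library and at most 14388 in the other ENCDC libraries, against 156569 to 207221 in gut libraries.

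Many such genes give long noncoding RNAs, which are long transcripts, often spliced, with no long reading frame. Some of these RNAs are the precursors from which a microRNA (miRNA) hairpin is cut, and others start next to the promoter of a protein-coding gene and are read in the other direction. Symbols are also given to pieces of transcript found within the intron of a longer gene. In the nervous system, long noncoding RNAs beside transcription factor genes are common.

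In the GENCODE M21 annotation, 26 of the 80 genes were long intergenic noncoding RNAs, 20 were in the class TEC, which still awaits experimental evidence, 14 were protein-coding, 10 were antisense, 8 were processed transcripts and 2 were noncoding RNAs from a bidirectional promoter. No pseudogene was among them, while 467 processed pseudogenes were among the 3440 other Gm and Rik genes with enough counts to be tested. RefSeq held 41 of the genes under the same symbol and 9 under another symbol, and 30 were not matched. Those with another symbol were 2010111I01Rik (Aopep, an aminopeptidase), 2810468N07Rik (Cerox1, a long noncoding RNA known to act on mitochondrial complex I in mouse cells), A730017C20Rik (Minar2), 9330182L06Rik (Elapor2), 1810041L15Rik (Shisal1), 2900011O08Rik (Bmerb1), 3110035E14Rik (Vxn), Gm5868 (Slc10a4l) and Gm38399, which RefSeq counts as part of Nav1.

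Hairpins of miRNAs lay inside 7 of the 80 genes (8.75%), on the same strand, compared with 0.727% of the other tested Gm and Rik genes and 3.48% of the tested genes with a name. Introns were included, neither gene span nor level was matched between these sets, and the difference was not tested. The study listed miR-9, miR-27b and miR-137 among its top miRNAs of these cells, and a hairpin of each lay in an annotated exon of 1 of the 80 genes. A mature miRNA is a short RNA that pairs with target mRNAs mainly through its seed, bases 2 to 8. The mature sequences carried by these 3 genes and by D030055H07Rik are shown because they are the part of these loci whose products are well known. The hairpin in D030055H07Rik lay outside its annotated exons. They come from RefSeq for GRCm38.p6, run 5′ to 3′ and have the seed in capitals.
mmu-miR-9-5p, in C130071C03Rik: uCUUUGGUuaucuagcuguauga
mmu-miR-9-3p, in C130071C03Rik: aUAAAGCUagauaaccgaaagu
mmu-miR-27b-3p, in 2010111I01Rik: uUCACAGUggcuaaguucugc
mmu-miR-24-3p, in 2010111I01Rik: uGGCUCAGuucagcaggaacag
mmu-miR-137-3p, in Gm26871: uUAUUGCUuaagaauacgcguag
mmu-miR-135a-5p, in D030055H07Rik: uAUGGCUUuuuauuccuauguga
No seed was shared among these sequences. The miRNAs themselves were not measured in the mRNA-seq libraries, so the counts below are those of the longer transcripts.

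C130071C03Rik, which holds the Mir9-2 hairpin (mm10, chromosome 13, 83738814 to 83738885, plus strand), had counts of 183, 201, 91 and 166 in ENCDC libraries, against 5, 0, 0 and 0 in gut libraries. All of its gut counts came from 1 library, and the lowest ENCDC count was in replicate 3. Gm33366 runs on the opposite strand of this gene and had counts of 25, 58, 62 and 53 in ENCDC libraries, against 0, 0, 2 and 0 in gut libraries. The 2 transcripts share 1327 exon bases, or 23.4% of the exon length of C130071C03Rik and 34.7% of that of Gm33366, and the libraries kept no strand, so reads from the shared bases cannot be told apart.

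Gm26871, which holds the Mir137 hairpin (chromosome 3, 118433857 to 118433929, plus strand), had counts of 146, 74, 454 and 83 in ENCDC libraries, against 0, 11, 3 and 1 in gut libraries. The count in ENCDC replicate 3 was far above the other 3, while the groups did not overlap, as the rule required. Gm37928 begins 461 bases after Gm26871 on the same strand and had counts of 37, 48, 146 and 60 in ENCDC libraries, against 0, 2, 0 and 0 in gut libraries. Both genes were thus highest in ENCDC replicate 3, the library with the most smooth muscle and mesenchyme counts among the ENCDCs, and the part of those cells in this was not tested. The rule required the counts of Gm26871 and Gm37928 in the other 3 ENCDC libraries to lie above gut as well.

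2010111I01Rik had the highest counts of the 80 genes, with 3637, 3776, 3273 and 3423 in ENCDC libraries, against 816, 807, 674 and 714 in gut libraries. Its mean ENCDC count was 4.69 times its mean gut count, close to the limit for inclusion, and its coefficient of variation (SD over mean) among ENCDC libraries was 6.33%, among the lowest. The gene holds the hairpins of miR-23b, miR-27b (chromosome 13, 63300712 to 63300784, plus strand) and miR-24-1. It overlaps Fancc, a Fanconi anemia gene read in the other direction, with 7.05% of its exon bases shared with other genes. Fancc itself had 633, 450, 641 and 502 counts in ENCDC libraries, against 538, 395, 398 and 514 in gut libraries, and was not called (log2 fold change 0.32 ± 0.17 SE, edgeR quasi-likelihood adjusted p = 0.170).

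The other 4 genes with a hairpin inside had mean ENCDC counts of 42.5 to 427. D030055H07Rik (miR-135a-1) had counts of 108, 76, 61 and 72 in ENCDC libraries, against 1, 1, 1 and 2 in gut libraries. 5330434G04Rik (miR-325) had counts of 208, 238, 367 and 167 in ENCDC libraries, against 20, 25, 18 and 6 in gut libraries. 9330182L06Rik (miR-879) and 6030407O03Rik (miR-6351) were the others. Some 42.6% of the exon bases of D030055H07Rik lie opposite Glyctk, a glycerate kinase gene, which was not called (log2 fold change 0.22, adjusted p = 0.788 by edgeR).

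Host transcripts of miRNAs on that list that have a name of their own lie outside the 80 genes. Mir124a-1hg, the host of a miR-124 hairpin, had counts of 64, 61, 82 and 68 in ENCDC libraries and 0 in every gut library, at least 91.7-fold higher in ENCDCs when the gut group is set at 3 counts in all. Mir9-3hg, named as a host of miR-9, had counts of 13, 3, 0 and 10 in ENCDC libraries, against 8, 0, 3 and 8 in gut libraries. It was not called (log2 fold change 0.50, edgeR adjusted p = 0.778).

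The 80 genes spanned a wide range of levels. Their mean ENCDC counts ran from 20.75 to 3527 with a median of 44.4, and 26 of them had a mean of at least 100. Summed over the 80 genes, the counts were 13187, 12830, 12078 and 11795 in ENCDC libraries, against 1601, 1623, 1369 and 1352 in gut libraries. This was 0.0889% to 0.0994% of the counts of an ENCDC library and 0.0102% to 0.0122% of those of a gut library. Per kilobase of exon, the median ENCDC level was 23.6 counts and the range was 2.09 to 430, compared with a median of 109 for named protein-coding genes with a mean of at least 20.

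**Figure D1:**
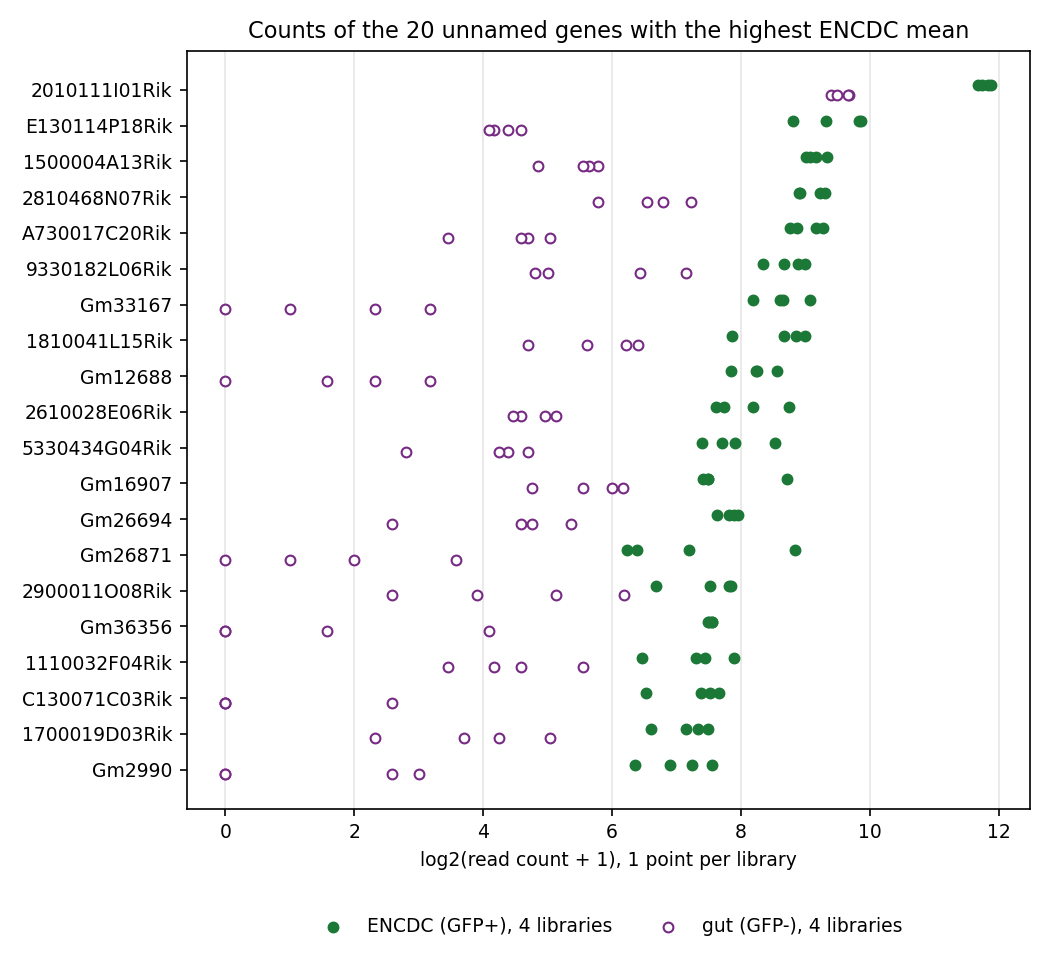
Read counts of the 20 genes with the highest mean ENCDC count, as log2(count + 1), with 1 point per library, filled for the 4 ENCDC libraries and open for the 4 gut libraries. The ENCDC points lie right of the gut points in every row, as the choice of genes required, and Gm36356 has the tightest ENCDC points, with counts of 179 to 186.

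Among these 20 genes, 8 were protein-coding in the annotation. E130114P18Rik had counts of 912, 931, 446 and 639 in ENCDC libraries, against 20, 23, 17 and 16 in gut libraries, so that its mean was 38.5 times higher. It starts 5344 bases from Nfia, a transcription factor gene on the opposite strand, which went the other way. Nfia had 357, 267, 120 and 172 counts in ENCDC libraries, against 594, 627, 633 and 669 in gut libraries, and was called lower in ENCDCs (log2 fold change -1.41 ± 0.28 SE, edgeR adjusted p = 0.00245). The 2 genes share 4 exon bases.

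A730017C20Rik had counts of 570, 618, 433 and 468 in ENCDC libraries, against 25, 10, 32 and 23 in gut libraries. 9330182L06Rik had counts of 469, 407, 323 and 510 in ENCDC libraries, against 31, 140, 85 and 27 in gut libraries. 1810041L15Rik had counts of 463, 508, 231 and 407 in ENCDC libraries, against 84, 73, 48 and 25 in gut libraries. The gut counts of these genes varied more among libraries than their ENCDC counts did in proportion. 2900011O08Rik, 1110032F04Rik and 1700019D03Rik, also protein-coding, had ENCDC counts of 87 to 236 and gut counts of 4 to 72 between them.

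Protein-coding genes were mostly lowest in ENCDC replicate 3 (11 of the 14), whereas TEC genes were mostly highest there (12 of the 20). Over all 80 genes, 31 were highest and 29 were lowest in replicate 3. Among the other genes with a mean ENCDC count of at least 20, 33.7% were highest and 34.3% were lowest in that library.

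Genes that were at 0 in every gut library give only a lower bound for the ratio, which was computed against 3 counts over the 4 gut libraries. These were Gm14133 (at least 54.0-fold higher in ENCDCs), B020031H02Rik (48.0-fold), B230206I08Rik (42.0-fold), Gm43789 (40.3-fold), Gm37092 (31.7-fold), Gm27217 (29.3-fold) and Gm5868 (27.7-fold). Gm14133 had 42, 33, 54 and 33 counts in ENCDC libraries, and Gm5868, with the lowest mean of the 80 genes, had 23, 25, 15 and 20. A further 14 genes had 1 to 3 gut counts in all. The highest ratio among these was that of Gm20515, with 262, 83, 96 and 77 counts in ENCDC libraries against 0, 1, 0 and 0 in gut libraries, or a ratio of 518 with an exact 95% interval of 92.6 to 20500 that covers counting error only. ENCDC replicate 1 gave 262 of its 518 ENCDC counts. At the other end, 33 genes had a count in every gut library.

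Many of the genes lay beside named genes that were themselves higher in ENCDCs. The nearest named gene in the deposited coordinates was taken for each, which gave 71 neighbours, of which 64 had enough counts to be tested. Of these, 35 (54.7%) were called higher and 10 (15.6%) lower in ENCDCs by edgeR at an adjusted p under 0.05. Over all 18866 genes tested, 17.0% were called higher and 20.9% lower (37.9% in either direction), and among named genes these shares were 19.2% and 23.7%. The nearest named genes of the other Gm and Rik genes, 2401 tested, were higher in 20.8% and lower in 23.4%. The median log2 fold change of the neighbours was 1.93, against -0.00085 for the neighbours of other Gm and Rik genes and -0.04 for all genes.

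When the neighbour was instead required not to overlap the gene, 20 of 60 tested neighbours (33.3%) were higher and 12 lower, with a median of 0.12, while for the other Gm and Rik genes 18.7% were higher. The difference between the 80 genes and the others was not tested. Without ENCDC replicate 3, the rule gave 86 genes, of which 72 were among the 80. The 8 that dropped out were 4930505M18Rik, 9530059O14Rik, Gm16104, Gm16907, Gm19817, Gm26610, Gm42971 and Gm44286. The number of neighbours called higher was 34 to 35 whichever library was left out.

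**Figure D2:**
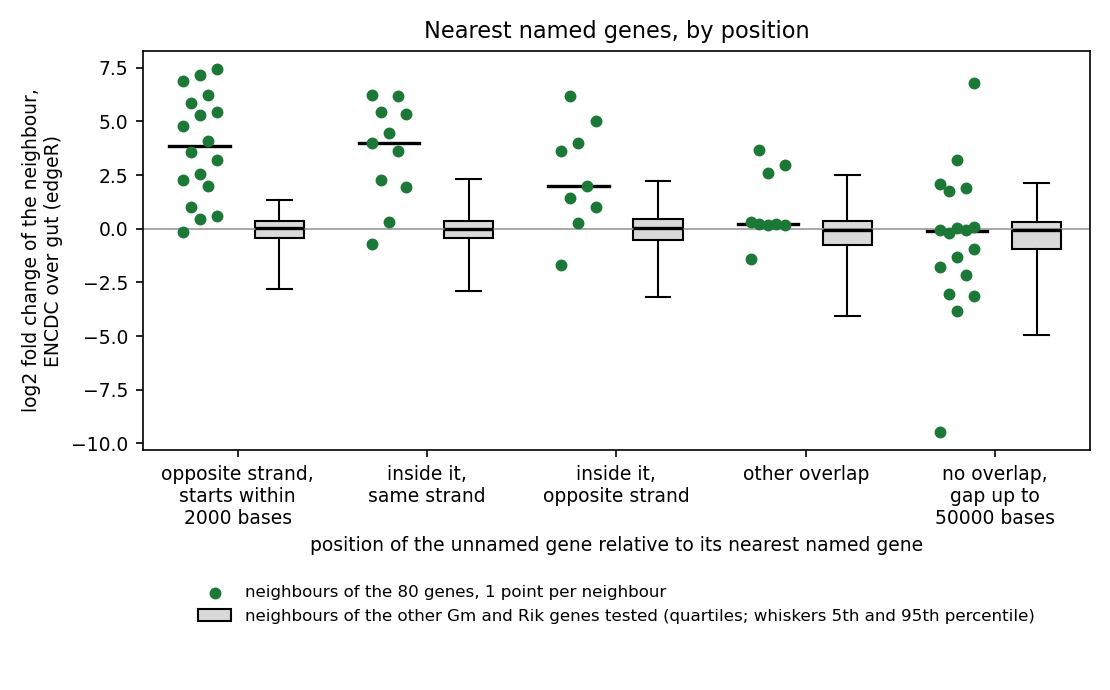
Log2 fold change of the nearest named gene, ENCDC over gut, by position of the unnamed gene. Points are the neighbours of the 80 genes with their median as a line, and boxes are the neighbours of the other tested Gm and Rik genes. Medians of the points are 3.84, 3.98 and 1.99 in the left 3 positions and 0.22 and -0.12 in the right 2, and the medians of the boxes are near 0.

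The largest class after the genes with no overlap started within 2000 bases of a named gene and ran on the opposite strand. It held 19 of the 80 genes. Of the 18 neighbours tested, 14 were higher in ENCDCs and none was lower, with a median log2 fold change of 3.84, and these counts were the same without any 1 library. For the 567 such neighbours of other Gm and Rik genes, 125 were higher, 117 were lower and the median was 0.03. The 4 that were not called were Tpbgl (1.02, adjusted p = 0.100), Rbm42 (0.58, adjusted p = 0.243), C2cd4b (0.43, adjusted p = 0.667) and Srsf5 (-0.16, adjusted p = 0.458), all from edgeR. In 9 of the 19 pairs both genes share exon bases, so that part of the reads cannot be assigned to one of them.

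Neighbours in this group included 3 transcription factors of the neural crest. Gm12688 starts 1316 bases from Foxd3, a factor of early neural crest cells, and had 302, 376, 228 and 300 counts in ENCDC libraries, against 8, 4, 0 and 2 in gut libraries. At 430 counts per kilobase of exon it had the highest level of the 80 genes. Foxd3 had 581, 615, 505 and 579 counts in ENCDC libraries, against 4, 5, 3 and 1 in gut libraries (log2 fold change 7.45 ± 0.31 SE, edgeR adjusted p = 2.53e-08). The 2 genes share no exon bases.

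Gm10863 starts 801 bases from Sox10, the factor that keeps crest cells as progenitors and glia, and had 38, 54, 30 and 50 counts in ENCDC libraries, against 7, 0, 0 and 5 in gut libraries. Sox10 had 5451, 4901, 5717 and 5318 counts in ENCDC libraries, against 69, 131, 39 and 56 in gut libraries (6.23 ± 0.30 SE, edgeR adjusted p = 7.22e-08). Sox10 did not overlap between the groups, and for Gm10863 the rule required this. 2810468N07Rik starts 328 bases from Sox8, a relative of Sox10, and had 594, 630, 479 and 474 counts in ENCDC libraries, against 148, 54, 110 and 92 in gut libraries. Sox8 had 2003, 1714, 1558 and 1901 counts in ENCDC libraries, against 33, 60, 50 and 43 in gut libraries (5.32 ± 0.19 SE, edgeR adjusted p = 9.16e-09). Sox8 shares 15.5% of the exon bases of 2810468N07Rik.

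Others in the group started beside genes of neurons. Gm2990 starts 947 bases from Chat, which makes acetylcholine, and had 118, 150, 81 and 187 counts in ENCDC libraries, against 5, 0, 7 and 0 in gut libraries. Chat had 131, 116, 68 and 91 counts in ENCDC libraries, against 0, 1, 2 and 0 in gut libraries (6.91 ± 0.74 SE, edgeR adjusted p = 2.71e-05). Both were lowest among ENCDC libraries in replicate 3. A530058N18Rik starts 17 bases from Gjd2, a gap junction gene of neurons, and had 73, 52, 75 and 58 counts in ENCDC libraries, against 0, 0, 5 and 0 in gut libraries. Gjd2 had 136, 347, 195 and 349 counts in ENCDC libraries, against 22, 8, 7 and 1 in gut libraries (4.80 ± 0.63 SE, edgeR adjusted p = 0.000128).

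Gm27217 starts 49 bases from Kcnh8, a potassium channel gene, and had 15, 30, 20 and 23 counts in ENCDC libraries and 0 in every gut library. Kcnh8 had 149, 106, 167 and 210 counts in ENCDC libraries, against 0, 1, 3 and 0 in gut libraries (7.18 ± 0.70 SE, edgeR adjusted p = 1.3e-05). The remaining called neighbours of this kind were Fam184b, Brsk2, Zbtb18, Soga3, Cacng4, Sv2c, Pcgf1 and Ralyl, with log2 fold changes of 1.99 to 5.89. Brsk2 is a kinase of neuronal polarity, Zbtb18 a repressor of transcription, Cacng4 a subunit of calcium channels and AMPA receptors and Sv2c a synaptic vesicle protein.

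**Figure D3:**
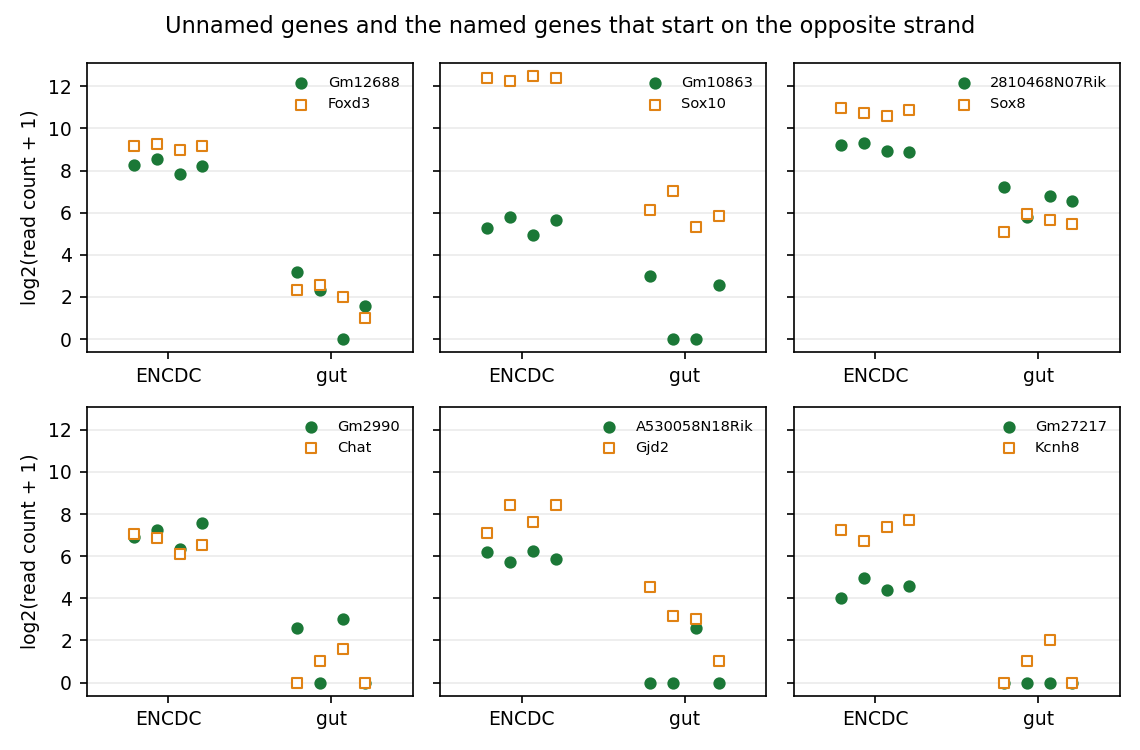
Read counts as log2(count + 1) of 6 pairs of an unnamed gene (filled circles) and the named gene that starts near it on the opposite strand (open squares), with 1 point per library and ENCDC libraries left of gut libraries. In all 6 pairs both genes lie higher in every ENCDC library than in any gut library. The choice of genes required this of the unnamed gene, and only pairs with a named gene called higher are shown. Counts are not divided by length, so heights compare groups within a gene only.

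Promoter windows of 300 bases (250 before and 50 after the start) were found in RefSeq for 34 of the 80 genes. Those of Gm10863, A530058N18Rik and C130071C03Rik are shown. The first 2 lie at the starts of gene pairs that were both high in ENCDCs. The third is at the start of the gene that holds Mir9-2, 1 of several miR-9 hairpins. They run 5′ to 3′ on the strand of the gene, and capitals mark each match to CANNTG, the E-box read by basic helix-loop-helix factors.
Gm10863, chr15:79165816-79166115, plus strand: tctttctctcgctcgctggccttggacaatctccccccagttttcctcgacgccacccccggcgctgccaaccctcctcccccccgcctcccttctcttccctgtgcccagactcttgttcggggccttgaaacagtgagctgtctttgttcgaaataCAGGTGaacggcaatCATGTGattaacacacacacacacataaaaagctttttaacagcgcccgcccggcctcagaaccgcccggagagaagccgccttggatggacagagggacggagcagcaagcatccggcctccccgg
A530058N18Rik, chr2:114013315-114013614, plus strand: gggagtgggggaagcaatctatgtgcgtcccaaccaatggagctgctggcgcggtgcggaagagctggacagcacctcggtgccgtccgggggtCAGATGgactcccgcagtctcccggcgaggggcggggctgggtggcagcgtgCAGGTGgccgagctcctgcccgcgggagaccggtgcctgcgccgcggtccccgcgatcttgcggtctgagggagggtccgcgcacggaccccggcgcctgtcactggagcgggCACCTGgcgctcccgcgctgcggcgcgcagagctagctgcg
C130071C03Rik, chr13:83721131-83721430, plus strand: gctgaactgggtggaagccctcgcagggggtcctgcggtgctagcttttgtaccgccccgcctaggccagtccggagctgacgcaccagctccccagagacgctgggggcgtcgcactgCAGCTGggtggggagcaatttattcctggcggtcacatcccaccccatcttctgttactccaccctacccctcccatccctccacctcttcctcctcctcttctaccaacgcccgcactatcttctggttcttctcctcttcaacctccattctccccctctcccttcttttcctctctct
Coordinates are those of GRCm38.p6. The E-box CANNTG was in 26 of the 34 windows (76.5%), against 67.7% of the windows of other tested Gm and Rik genes and 72.2% of all windows. Matches to AACAAT, the core read by SOX factors, were in 5 windows (14.7%), against 7.27% and 10.9%. TATAAA was in 2 windows (5.88%), against 8.41% and 14.2%, and CCAAT in 9 (26.5%), against 38.3% and 38.0%. Neither TTCAGCACC, the core of the element read by REST, nor an inverted pair of TAAT homeodomain sites was found in a window, and each was in at most 0.49% of all windows. Both strands were searched, matches of different motifs could overlap, and no share was tested. The ratio of observed to expected CpG was above 0.6 in 12 of the 34 windows (35.3%), against 51.4% of those of other Gm and Rik genes and 36.5% of all.

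A further 15 genes lay inside a named gene on the strand of that gene, and 13 of these were TEC genes. They lay in 11 named genes, of which 9 were called higher in ENCDCs and 1 lower (median log2 fold change 3.98). For 541 named genes that hold other Gm and Rik genes in this way, 116 were higher and 118 lower. The 9 were Srrm4, Sox2ot, Serpini1, Mapk10, Dlg2, Zfp536, Dclk1, Ctnna2 and Ank2, with log2 fold changes of 1.97 to 6.22, most of them known as genes of neurons. Srrm4 controls splicing of neuronal exons, Dlg2 is a scaffold of synapses, Dclk1 binds microtubules and Ank2 anchors membrane proteins. Reads from unspliced RNA of the longer gene and reads from the gene inside it cannot be told apart.

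Dlg2 alone held 4 of the 80 genes. Gm45130 had 108, 39, 151 and 164 counts in ENCDC libraries, against 1, 0, 0 and 6 in gut libraries, and Gm44677, B230206I08Rik and Gm44676 had 9 to 55 in ENCDC libraries and 0 to 6 in gut libraries. Dlg2 had 1151, 1092, 784 and 1306 counts in ENCDC libraries, against 55, 66, 61 and 18 in gut libraries (4.49 ± 0.33 SE, edgeR adjusted p = 1.65e-06). Among ENCDC libraries Dlg2 was lowest in replicate 3, as was Gm44676, whereas the other 3 genes inside were lowest in replicate 2.

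Of all 15 genes inside, 10 were highest in ENCDC replicate 3, while 9 of the 11 genes that hold them were lowest there. Summed counts of the 15 were 817, 534, 1286 and 767 in ENCDC libraries, against 95, 106, 58 and 104 in gut libraries. Among 178 other Gm and Rik genes that lie inside a named gene on its strand and have a mean ENCDC count of at least 20, 59.0% were highest in replicate 3. TEC genes outside the 80 were also highest in replicate 3, with summed counts of 20036, 12910, 25887 and 15327 in ENCDC libraries, against 16397, 15680, 17277 and 13390 in gut libraries. Replicate 3 is also the ENCDC library with the high smooth muscle and mesenchyme counts given above, and their part in this was not tested.

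**Figure D4:**
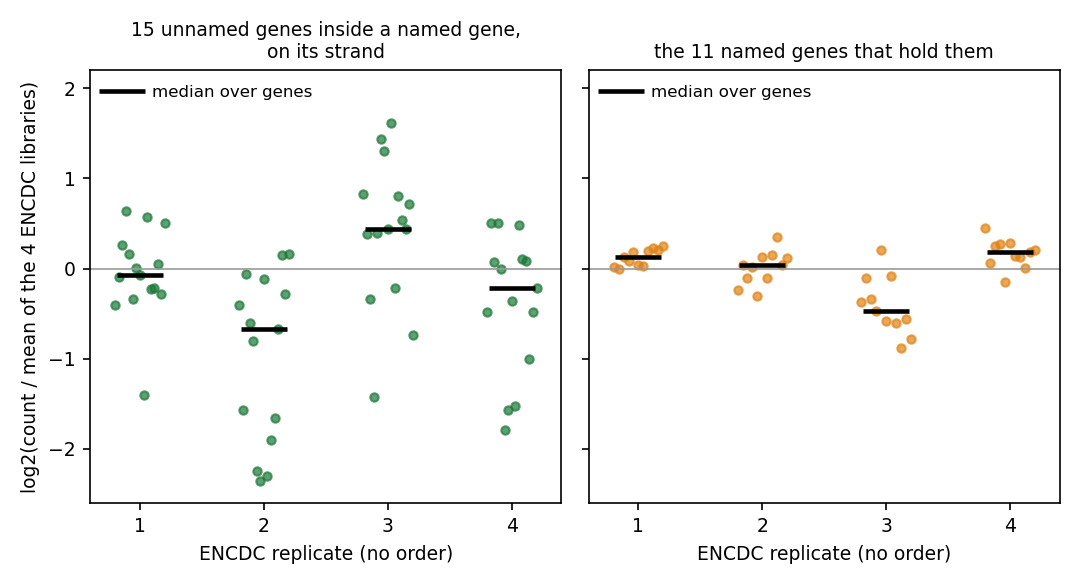
Count of each gene divided by its mean over the 4 ENCDC libraries, on a log2 scale, for the 15 unnamed genes that lie inside a named gene on its strand (left) and for the 11 genes that hold them (right). Each point is a gene in a library and the bar is the median over genes. In replicate 3, 10 of the 15 are at their highest and 9 of the 11 at their lowest.

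Genes that lay inside a named gene on the opposite strand numbered 9, and 7 of the 9 named genes were higher and 1 lower. For 455 named genes that hold other Gm and Rik genes in this way, 109 were higher and 102 lower. Gm20515 lies in Sox2ot, the long transcript over the Sox2 gene, which had 578, 628, 267 and 495 counts in ENCDC libraries, against 0, 13, 10 and 4 in gut libraries (6.21 ± 0.58 SE, edgeR adjusted p = 9.53e-06). Gm14424 lies in Haglr, a noncoding gene of the HoxD cluster, and had 87, 87, 69 and 84 counts in ENCDC libraries, against 1, 1, 0 and 0 in gut libraries. Haglr had 705, 775, 578 and 774 counts in ENCDC libraries, against 22, 22, 13 and 34 in gut libraries (5.0 ± 0.27 SE, edgeR adjusted p = 1.8e-07). Some 29.1% of the exon bases of Gm14424 lie opposite Haglr exons. D930028M14Rik lies in Pou2f2, whose call rested on few counts (1.99 ± 0.68 SE, edgeR adjusted p = 0.0378) and was lost in 8 of the alternative analyses, with adjusted p of 0.0518 to 0.0999.

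Neighbours that did not overlap were called in both directions. For the 21 genes with a gap of up to 50000 bases to the nearest named gene, 5 of 18 tested neighbours were higher and 6 were lower, with a median of -0.12, and without gut replicate 1 only 4 were lower. The higher ones included Tuba1a, Hs3st1, Hand2 and Dpyd. For 565 neighbours of other Gm and Rik genes at such a gap, 100 were higher and 152 lower, with a median of -0.04. Gm33167, a TEC gene of this class, had 389, 534, 289 and 401 counts in ENCDC libraries, against 4, 1, 8 and 0 in gut libraries. Its groups did not overlap, as the rule required. Gm34030 lies 6659 bases from Hand2, a factor of enteric neuron differentiation, and had 107, 102, 102 and 98 counts in ENCDC libraries, against 20, 26, 22 and 20 in gut libraries. Its counts were among the steadiest of all, but 74.4% of its exon bases lie opposite 5033428I22Rik, so they may include reads of that gene. Hand2 had 917, 828, 641 and 754 counts in ENCDC libraries, against 166, 246, 189 and 271 in gut libraries (1.90 ± 0.19 SE, edgeR adjusted p = 2.05e-05).

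Some of the highest genes had a nearest named gene that was lower in ENCDCs or was not called. 1810041L15Rik lies 35825 bases from Parvg, an adhesion gene of blood cells, which had 1 count over the 4 ENCDC libraries, against 342, 266, 277 and 214 in gut libraries, and was called lower (edgeR adjusted p = 2.71e-07). A730017C20Rik lies 8170 bases from Adamts19, a metalloprotease gene, with 14, 14, 14 and 40 counts in ENCDC libraries, against 123, 205, 207 and 165 in gut libraries (-3.03 ± 0.44 SE, edgeR adjusted p = 0.000262). 1500004A13Rik had 645, 511, 572 and 535 counts in ENCDC libraries, against 54, 28, 49 and 46 in gut libraries, while the nearest named gene, Gon4l, was not called (-0.05, edgeR adjusted p = 0.883). Syt11, a synaptotagmin gene 7379 bases from 1500004A13Rik, was higher, with 6355, 6962, 5705 and 7211 counts in ENCDC libraries, against 229, 302, 246 and 174 in gut libraries (log2 fold change 4.84, edgeR adjusted p = 7.66e-09). Gm36356 had 186, 179, 181 and 186 counts in ENCDC libraries, against 16, 2, 0 and 0 in gut libraries. It lies 19751 bases from Clrn3, which had few counts and whose lower call was lost without gut replicate 1 or gut replicate 4 (adjusted p of 0.0509 to 0.0566). 2610028E06Rik had 289, 211, 429 and 195 counts in ENCDC libraries, against 23, 30, 21 and 34 in gut libraries, and lies 101733 bases from Csf3r, a receptor gene of myeloid cells, which was lower (-4.85 ± 1.08 SE, edgeR adjusted p = 0.00462).

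Overlap of exons limited some of the genes. Exon bases were shared with another gene of the table in 30 of the 80, and more than 50% of them in Gm26694 and Gm34030. Gm26694 had 196, 246, 236 and 225 counts in ENCDC libraries, against 40, 23, 26 and 5 in gut libraries, and 96.7% of its exon bases lie opposite Capn15 and Metrn. Metrn was called higher in ENCDCs (log2 fold change 3.01, edgeR adjusted p = 1.08e-07) and Capn15 was not called (-0.17, edgeR adjusted p = 0.644). The counts of Gm26694 may therefore include reads of these genes. The 80 genes had longer exons in sum than the other tested Gm and Rik genes (median 2572 against 1934 bases), and fewer had a single block of exon (31.2% against 48.8%). The limit on the mean count was not divided by length and levels were not matched, and these differences were not tested.

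A total of 14 of the genes lay within 100000 bases of another of the 80, in 7 pairs. Besides C130071C03Rik with Gm33366 and Gm26871 with Gm37928, these were 2010111I01Rik with Gm16907, Gm42972 with Gm42971 in Ank2, Gm44883 with 4930505M18Rik in Zfp536, Gm44676 with Gm44677 in Dlg2, and Gm9996 with 9330159F19Rik. Gm16907 overlaps 2010111I01Rik on the other strand, with 3.88% of its exon bases shared, and had 178, 178, 420 and 169 counts in ENCDC libraries, against 46, 71, 26 and 63 in gut libraries. It was high in replicate 3, where 2010111I01Rik was at its lowest. In all, 19 chromosomes held at least 1 of the genes, and chromosomes 3 and 7 held 11 each.

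The spread among ENCDC libraries was large for the low genes. The median coefficient of variation was 34.8%, against 18.9% for all genes with a mean ENCDC count of at least 20. The rule favoured genes with no low ENCDC count, and below a mean of 100 the genes varied less than others of the same level (42.7% against 52.6% at means of 20 to 50, and 23.6% against 38.7% at 50 to 100). At means of 100 to 5000 they varied more (27.6% against 16.4%), but this range is wide and levels within it were not matched. The highest values were those of Gm44286 (138%, with 13, 7, 106 and 12 counts in ENCDC libraries), Gm42971 (117%, with 30, 8, 103 and 11) and Gm19817 (104%, with 36, 7, 88 and 12). All 3 lie inside a named gene and were highest in replicate 3. Among the other ENCDC libraries Gm44286 ranged over 7 to 13 counts, while Gm42971 and Gm19817 still ranged over 8 to 30 and 7 to 36. The lowest were those of Gm36356 (1.95%), Gm34030 (3.60%) and 2010111I01Rik (6.33%).

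Genes close to the limits show where the rule drew the line. Gm5868, Gm2464 and Gm16104 lay just inside the limit on the mean, at 20.75 to 21.25 counts, and Gm36944, 9430041J12Rik and Gm37861 just outside, at 18.25, 17.5 and 17.5 counts, all 3 with 0 in every gut library. For the limit on the ratio, B230216N24Rik, Gm26610 and 9530059O14Rik lay just inside (4.13, 4.17 and 4.27) and Gm16499, Gm21816 and 2610035D17Rik just outside (3.77, 3.52 and 3.46). 2610035D17Rik had 555, 738, 483 and 563 counts in ENCDC libraries, against 122, 185, 149 and 217 in gut libraries. The condition that the groups not overlap, which 15.0% of all tested genes met with ENCDCs on top, kept out 31 genes that met the other limits, among them Gm38359, Gm16070 and Gm44433. The whole rule was met by 3.86% of all tested genes and by 649 named genes.

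Few of the other genes with such symbols were called in either direction. Of the 3440 other Gm and Rik genes tested, 184 (5.35%) were called higher and 315 (9.16%) lower in ENCDCs, with a median log2 fold change of -0.07. The rule had taken genes high in ENCDCs out of this class, which lowers its higher share. Over all 3520 Gm and Rik genes tested, 264 (7.5%) were higher and 315 (8.95%) lower. Among all genes tested these shares were 17.0% and 20.9%. Of the other Gm and Rik genes, 113 were higher without ENCDC replicate 1. With the replicate number as a block, 74 were higher and 157 lower. When a mean count of at least 20 was required, fewer genes were tested, with 72 higher and 135 lower. Long noncoding RNAs that have a name were called in both directions. Of 40 tested from a list of 44, 6 were higher in ENCDCs and 11 were lower, with a median of -0.07. Beside them, 17.0% of all genes tested were higher and 20.9% lower, and the difference was not tested.

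Those that were higher included Miat, with 3091, 2210, 1659 and 2254 counts in ENCDC libraries, against 34, 39, 29 and 36 in gut libraries (6.11 ± 0.22 SE, edgeR adjusted p = 1.03e-08). Peg13, an imprinted transcript, followed with a log2 fold change of 2.22, and Pantr1 and Snhg11 with 3.28 and 1.61. Sox2ot and Mir124a-1hg, given above, were the other 2. Those that were lower in ENCDCs included the imprinted H19 (-2.48), Meg3 (-1.24) and Rian (-1.87), and Dnm3os (-3.74), a noncoding gene of mesenchyme. H19 had 908, 725, 1114 and 546 counts in ENCDC libraries, against 4061, 4798, 4876 and 5256 in gut libraries.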

How the data were processed

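STAR 2.4.2a (genome mm10) and PORT were used by the authors, and the deposited values are the minimum normalized counts of PORT, whole reads per gene at nearly one depth. Small RNAs and CPM are named in the design text, but the title, labels and paper describe mRNA-seq, so the values were taken as mRNA counts. The kits keep no strand. Counting error limits genes with few counts, and the intervals cover that error only.

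Members were found by the rule on the deposited counts. The members and all lists were chosen with earlier results of these data known, and the classes of position were set after the files were seen. ENCDCs were compared with gut cells in edgeR 4.0.16 (R 4.3.3; TMM factors, quasi-likelihood F test, Benjamini-Hochberg, adjusted p under 0.05) over genes that reached, in 1 population or both, a mean of 3 or more and a nonzero count in 3 or more of its 4 libraries. Alternatives used limma 3.58.1 with voom, as in the study, DESeq2 1.42.0, other factors and filters, a replicate block, other neighbours, other member rules and leaving out each library. Scripts were tested on simulated data. Tables and plots were made in Python 3.11.15 with pandas 2.3.3, scipy 1.17.1 and matplotlib 3.10.9.

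The nearest named gene was taken by gap in the deposited intervals, which for 27468 genes reach 200 bases past GENCODE M21 (GRCm38, the same build as mm10) on both sides. Distances between starts, gene types and exons are from M21, which held 29035 of the genes. Sequences are from RefSeq GRCm38.p6. The text names the 20 members with the highest mean, those at 0 in gut, those at the thresholds, the extremes of spread, those with another RefSeq symbol, pairs, and neighbours of these, and from the named noncoding RNAs up to 4 each way. Other members described by position and miRNA, and Mir124a-1hg, Mir9-3hg, Pantr1 and Sox2ot, were chosen after their values were seen. Some results that the rule for named genes would give are not reported here.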

Additional observations from a re-analysis of the deposited data

Results flagged for a closer look

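By Dixon's test, single libraries lay far from the other 3 of their group in 7 of 104 groups of the 80 genes. The same held in 8 of 117 groups of their neighbours. Only groups with a range of at least 10 counts were tested. How often chance gives this in groups chosen by their range was not computed. No cause was tested. In ENCDC replicate 3, Gm16907 had 420 counts (169 to 178 in the other ENCDC libraries), Gm44286 had 106 (7 to 13) and Gm42972 had 46 (20 to 23), while Gm14424 had 69 (84 to 87) and Serpini1, a neuronal protease inhibitor gene, had 3914 (6508 to 6821). In other ENCDC libraries, Gm20515 had 262 counts in replicate 1 (77 to 96), Pou2f2 had 70 in replicate 2 (36 to 38), and in replicate 4 Fam184b had 1970 (1611 to 1650) and Adamts19 had 40 (14 in each of the others). In gut replicate 1, Gm36356 had 16 counts (0 to 2 in the other gut libraries), Pou2f2 had 29 (4 to 8) and Ank2 had 827 (411 to 472). In gut replicate 3, Fam184b had 11 counts (34 to 38) and Zbtb18 had 75 (113 to 117), and in gut replicate 4, 9330159F19Rik had 18 (2 in each of the others).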

How the results depend on the processing

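No value reversed its direction under an alternative. Of the single-gene results, 1493 kept their call, 8 gained one and 14 lost one. With only genes of a mean count of at least 20, the other Gm and Rik genes gave 72 higher and 135 lower calls, since fewer genes were tested. With the replicate number as a block they gave 74 higher and 157 lower, and the neighbours of the 80 genes 34 higher and 10 lower. Same-numbered libraries did not deviate together (correlations across genes of -0.017 to 0.015). This cannot show whether they came from the same bowels, so the lower counts under the block stand beside those of the main fit. Leaving out each library in turn gave 113 to 175 higher and 242 to 343 lower among the other Gm and Rik genes, 34 to 35 and 8 to 10 among the neighbours, 6 to 7 and 9 to 11 among the named noncoding RNAs, and 78 to 94 genes by the rule. Taking the nearest gene without overlap gave 20 higher neighbours, and taking all genes within 50000 bases gave 62 higher and 19 lower, since more neighbours were read. A limit of 50 on the mean left 38 genes. Alternatives by class of position were added after the data were seen. At means near 20, counting error limits the order of single genes.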
